A study of Drosophila melanogaster with 9 samples.

Results

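The 43 3′ untranslated regions (3′ UTRs) described here are those of protein-coding transcripts over which wild-type ovaries held appreciable small RNAs antisense to the gene. They were chosen by their antisense abundance in WT, a mean of at least 3 over the 3 WT libraries, among 4601 distinct 3′ UTR features. Features on chromosome 4, on the unplaced heterochromatic scaffolds and near the centromeres were left out, as were those of fok, Amun and the eggshell genes named Cp and Vm. Of 64 protein-coding 3′ UTRs at or above the threshold, 21 were left out for these reasons. The 43 belong to 38 named genes, and 3 further transcripts (NM_001169948, NM_001103456 and NM_169831) carry no gene symbol here. They made up 1.09% of the 3928 protein-coding 3′ UTRs outside the parts left out, and carried 56.3% of their antisense abundance in WT.

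Small RNAs of ovaries from Drosophila melanogaster females aged 3 to 5 days were sequenced in 9 libraries, 3 in each of 3 groups. All females were hs-Flp / +. On the second chromosome the enok1 group had FRTG13, enok[1] over FRTG13, ovo[D1-18], the enok2 group carried enok[2] in place of enok[1], and the WT group carried FRTG13 alone over the same FRTG13, ovo[D1-18] chromosome. All groups therefore shared the heat shock, the heat-shock driven FLP recombinase and the dominant female-sterile ovo[D1-18], which stops germline cells that keep it. Recombination at the FRT site makes the germline cells that go on homozygous for the other 2R arm. Both alleles abolish the acetyltransferase function of Enok, a histone acetyltransferase. RNA was taken from egg chambers past the early stages, up to mature eggs. The follicle cells around the germline are not selected by ovo[D1-18], so each library can also hold RNA of cells that were not made homozygous. Whether follicle cells held such clones was not examined. enok lies on 2R as well, so for 3′ UTRs on that arm the allele and anything else carried on the same arm cannot be told apart. The study's methods call the small RNA replicates independent, but no source used here says whether they came from separate sets of flies, so p-values measure the spread between these libraries. In such bulk samples fewer cells of a type and less RNA per cell cannot be told apart.

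PIWI-interacting RNAs (piRNAs) are the most abundant small RNAs of the fly ovary besides microRNAs (miRNAs), and guide PIWI proteins to transposon transcripts to which they are antisense. Small RNAs antisense to an ordinary gene can arise in several known ways. A transposon copy lying in the 3′ UTR can be matched by piRNAs against that transposon, and a gene transcribed across the region on the other strand can give sense small RNAs of its own, which are antisense to the first gene. Convergent transcripts can also pair into double-stranded RNA, which Dicer-2 cuts into endogenous siRNAs.

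Abundance is the small RNA signal of a feature relative to the miRNAs of the same library. The study describes these genic values as piRNA abundance. Read lengths were not examined here, so the wider term small RNAs is kept. Abundance is given per 3′ UTR feature as listed, and a transcript can have more than 1 such feature. It was not divided by length, so an order of genes by abundance is no order of expression. The most common value above 0 in a library, taken as what 1 read is worth, lay between 0.27 and 0.49, so that an abundance of 3 corresponded to between 6.1 and 11 reads. In all, the antisense signal of the 43 3′ UTRs was equal to 1019 to 1277 reads per enok1 library, 801 to 1012 per enok2 library and 1205 to 1316 per WT library. Precision at the low end is therefore set by a few reads. At the threshold, Psf3 (WT mean 3.17), PNPase (3.11) and Gp210 (3.01) stood just inside, and another feature of NM_001169948 (2.99), lms (2.98) and 2mit (2.91) just outside.

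In WT, 37 of the 43 3′ UTRs had more antisense than sense small RNAs, and the median antisense share of a 3′ UTR was 84.0%. Taken as sums, the antisense strand held 69.9 ± 2.58% of their small RNAs in enok1, 70.9 ± 1.05% in enok2 and 69.25 ± 0.459% in WT (SD, n = 3 each). Over all 3′ UTRs the antisense strand held between 5.33% and 6.71% in the 9 libraries. The WT part of this contrast follows from how the 3′ UTRs were chosen. Sense small RNAs were at 0 in all 3 WT libraries for 4 of them. The 5 with the highest antisense share in WT were CG1463, CG11768, both features of CG32544 and NM_001169948, at 99.7% or more. At the other end, the antisense share in WT was 26.7% for Sec20, 26.8% for luna, 36.2% for Rab8 and 38.0% for Gp210. Of the summed antisense abundance of all 43 in WT, 47.8% came from the 3′ UTRs of CG1463, udd, luna and CG31211.

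**Figure D1:**
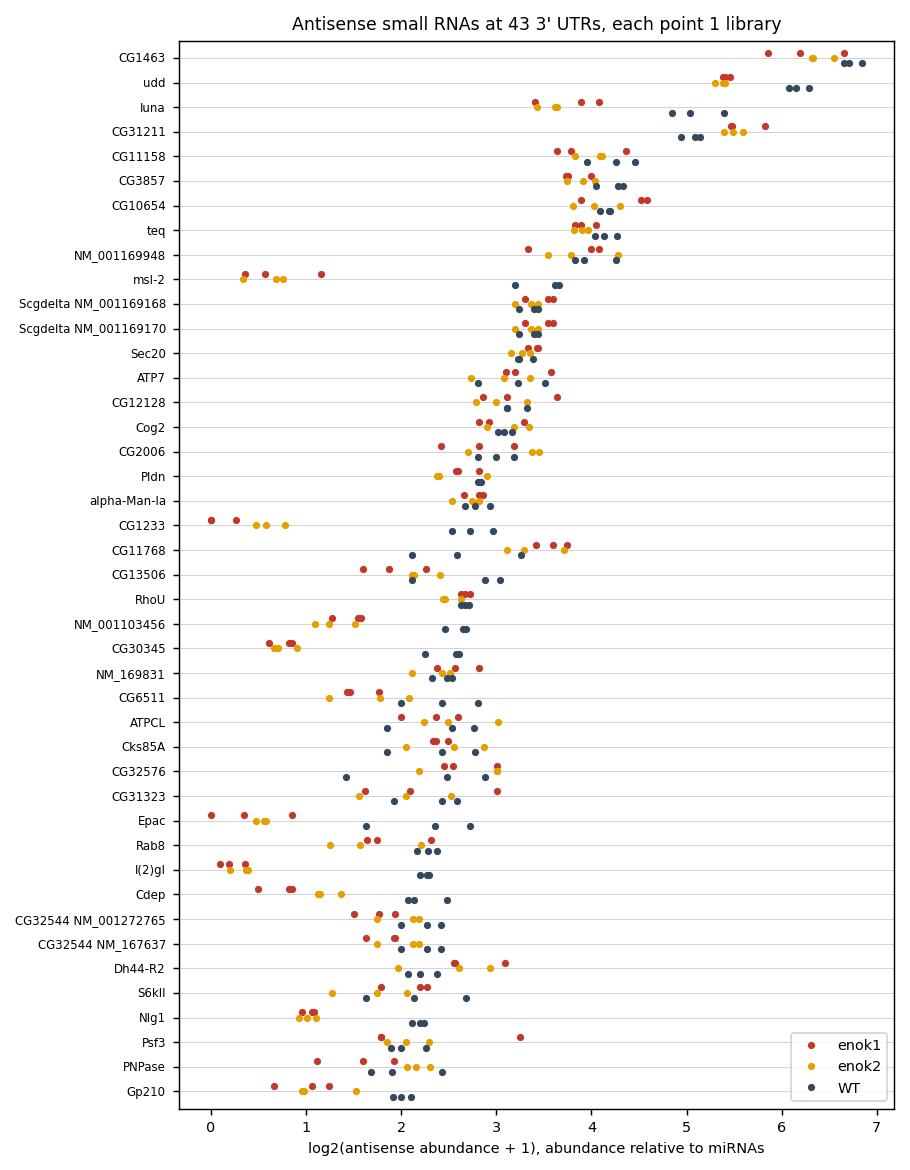
Antisense abundance of each of the 43 3′ UTRs in the 9 libraries, as log2(abundance + 1) relative to miRNAs, ordered by the WT mean, with 1 point per library (red enok1, orange enok2, dark blue WT). For msl-2, CG1233, CG30345, l(2)gl and Nlg1 the 6 mutant libraries lie apart from and below the 3 WT libraries, whereas for Scgdelta and Sec20 the groups lie on top of each other.

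Annotation that the choice of 3′ UTRs did not use split them into groups. In the Release 6 annotation of the fly genome, matched by gene symbol, 13 of the 38 named genes (34.2%) had an annotated transposon overlapping a 3′ UTR, against 80 of 2757 genes (2.9%) among all those outside the parts left out. An exon of another gene overlapped the 3′ UTR on the opposite strand for 21 of the 38 (55.3%), against 771 of 2757 (28.0%). By the deposited dm3 positions, another 3′ UTR started within 2000 bases on the opposite strand for 20 of the 43 (46.5%), against 20.3% of the 3928. The 3′ UTRs were then sorted into 14 with a transposon, 25 with no transposon found but with an exon or a 3′ UTR on the opposite strand, and 3 with neither. The last, NM_001103456, could not be looked up for want of a symbol, and the same holds for transposons in NM_001169948 and NM_169831, counted among the 25. These groups were formed after the values had been seen, so they are described without a test. The annotation is that of the reference strain, and whether the flies studied carry each transposon copy, or whether the annotated 3′ UTR is that of the listed transcript, was not tested.

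The transposon-bearing 3′ UTRs were those of udd, luna, CG3857, teq, msl-2, Scgdelta (2 features), Sec20, alpha-Man-Ia, RhoU, CG30345, l(2)gl, Nlg1 and Gp210. The transposons were LTR retrotransposons (297 in udd and luna, opus in CG3857, 412 in teq and RhoU, roo in Scgdelta and alpha-Man-Ia, Burdock in CG30345, invader3 in Nlg1 and Idefix in l(2)gl) and the DNA elements INE-1 (msl-2, l(2)gl and Gp210) and 1360 (Sec20). In 13 of the 14 a transposon lay in the same orientation as the gene, so that small RNAs antisense to the 3′ UTR would be antisense to the transposon where they fall within it. Positions of reads within a 3′ UTR were not examined. The exception was luna, where 297 lay the other way round. l(2)gl held an INE-1 copy in the same orientation and an Idefix copy in the opposite one.

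Between mutants and WT the 43 3′ UTRs fell into some with much lower antisense signal and many with little difference. A 3′ UTR was called at an adjusted p under 0.05 (limma on log2(abundance + 1), Benjamini-Hochberg over the 216 3′ UTRs tested on that strand). By this rule 12 of the 43 were lower and 2 higher in enok1 than in WT, where 15.7% of the 216 were called lower and 8.8% higher. In enok2, 12 were lower and 1 higher, against 16.2% and 11.6% of the 216. The 43 were selected for a high value in the same WT libraries, which by itself favours lower mutant values, so nothing is read from these counts. Scaled by piRNA clusters in place of miRNAs, enok1 had 10 calls below and 6 above WT among the 43, beside 27 below and 41 above among the 216, and enok2 had 11 below and 1 above, beside 33 and 30. Scaled by sense 3′ UTRs, enok1 had 18 below and 0 above (limma), beside 49 and 12 among the 216, and enok2 had 14 below and 0 above, beside 40 and 19. The unadjusted p was under 0.05 for 24 and 18 of the 43 there. The balance of lower and higher calls in enok1 thus depended on the scaling. Lower in both mutants were udd, luna, msl-2, CG1233, NM_001103456, CG30345, Epac, l(2)gl, Cdep, Nlg1 and Gp210, and higher in both was CG31211. Of the 216, 14.4% were called lower in both and 7.87% higher in both. Over the 43 the median log2 difference was -0.20 in enok1 and -0.21 in enok2, beside -0.04 in both over the 216. For CG31211, CG11768 and CG6511 in enok1 and for CG1463 and Gp210 in enok2 the call did not hold without single libraries, as given with their values below.

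Among the transposon-bearing 3′ UTRs, those with 297, INE-1, Burdock or invader3 accounted for all 7 called lower in each mutant. The other 7 carried roo, 412, opus or 1360 and differed from WT by between -0.39 and 0.13 in enok1 and between -0.32 and -0.02 in enok2 on the log2 scale. Over the 216 tested, 15.7% were called lower in enok1 and 16.2% in enok2. The 3′ UTRs were chosen for high WT values, and udd and luna are not independent measurements, so this split is a description. As sums, the 14 held an antisense abundance of 127.0 ± 7.1 in enok1, 120.0 ± 6.7 in enok2 and 203.0 ± 14 in WT (SD, n = 3 each). Much of this sum and of its difference came from udd and luna, which both carry 297 and lie on 2R. Their means were 41.7 and 13.1 in enok1, 40.2 and 10.8 in enok2 and 71.2 and 33.5 in WT. Scgdelta entered the sum with both of its features, which hold the same signal.

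**Figure D2:**
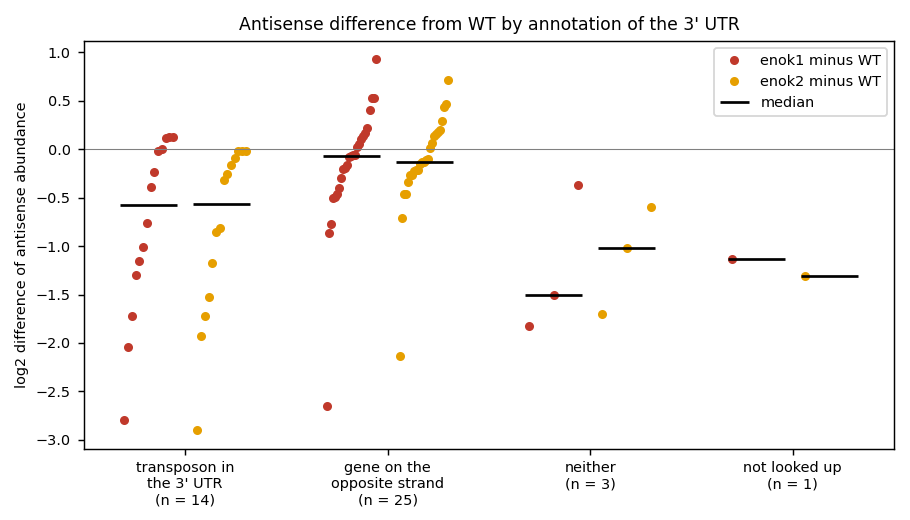
Difference of antisense abundance from WT on the scale of log2(abundance + 1) for each 3′ UTR (points; red enok1, orange enok2) by annotation, with the median of each set as a black line. The 14 transposon-bearing 3′ UTRs spread between -2.80 and 0.13 in enok1. Most of the 25 with an exon or a nearby 3′ UTR start on the opposite strand lie near 0 (median -0.07 in enok1). CG1233 is the low point among them at -2.65. The 3 with neither and NM_001103456, which was not looked up, are all below 0.

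On the scale of log2(abundance + 1), which understates changes of low features, the INE-1-bearing msl-2 3′ UTR (2L, start 3462216 in dm3, minus strand) had the most negative differences from WT. As a percent of the WT mean, msl-2 stood at 6.38% in enok1 and 4.99% in enok2, l(2)gl at 4.34% and 6.64%, and CG1233 at 1.16% and 9.25%. msl-2 encodes a subunit of the dosage compensation complex, which is translationally repressed in females. Its antisense abundance was 0.48, 0.28 and 1.22 in the enok1 libraries, 0.26, 0.69 and 0.6 in the enok2 libraries and 11.66, 8.13 and 11.26 in the WT libraries. All 6 mutant libraries were at or near the value of a few reads and far below every WT library, and the log2 differences were -2.80 (SE 0.26) and -2.90 (SE 0.22). The sense strand of the same 3′ UTR went the other way, with 10.86, 16.3 and 13.41 in enok1, 10.39, 12.5 and 12.25 in enok2 and 7.1, 6.69 and 8.65 in WT. Every mutant library was above every WT library there. The sense difference passed the test in enok1 (log2 0.77, SE 0.21, limma adjusted p = 0.0429) and missed it in enok2 (0.59, SE 0.19, limma adjusted p = 0.133). The enok1 call was lost when any of the WT libraries or enok1 library 2 or 3 was left out, with limma adjusted p between 0.0673 and 0.172.

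l(2)gl, a cell polarity gene and tumour suppressor, lies close to the left end of 2L (start 9839, minus strand). Its antisense abundance was 0.07, 0.28 and 0.14 in enok1, 0.29, 0.31 and 0.15 in enok2 and 3.88, 3.6 and 3.81 in WT. The mutant values were below that of a single read, while the WT values varied little. The sense strand held 3.18, 4.58 and 5.53 in enok1, 4.23, 3.53 and 4.01 in enok2 and 3.87, 4.77 and 5.79 in WT, with groups that overlapped and log2 differences of -0.11 (SE 0.24) and -0.23 (SE 0.22). The third INE-1-bearing 3′ UTR, that of the nuclear pore glycoprotein gene Gp210 (2R, start 1659706, plus strand), had antisense values of 0.58, 1.09 and 1.37 in enok1, 1.88, 0.97 and 0.94 in enok2 and 2.76, 2.98 and 3.3 in WT. Its mutant libraries were all below WT, and the call in enok2 did not hold without WT library 3 or enok2 library 2 or 3, where the log2 difference was between -0.80 and -0.75.

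The Burdock-bearing CG30345 3′ UTR (2R, start 5038810, plus strand) gave antisense values of 0.52, 0.81 and 0.76 in enok1, 0.63, 0.58 and 0.87 in enok2 and 3.77, 4.95 and 5.09 in WT. The log2 difference was -1.72 in both mutants (SE 0.22 in enok1 and 0.20 in enok2). On the sense strand CG30345 held 4.83, 6.01 and 5.89 in enok1, 6.84, 4.97 and 5.78 in enok2 and 3.17, 3.69 and 3.55 in WT. Every mutant library was above WT here too, but the sense differences of 0.55 (SE 0.21, limma adjusted p = 0.128) and 0.61 (SE 0.21, limma adjusted p = 0.155) did not pass the test. For Nlg1, a neuroligin involved in synapse formation (3R, start 3519423, plus strand, invader3), antisense values were 0.94, 1.11 and 1.08 in enok1, 1.15, 1.01 and 0.9 in enok2 and 3.6, 3.73 and 3.31 in WT. These groups were tight and did not overlap, and the log2 differences were -1.15 (SE 0.20) and -1.17 (SE 0.19).

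udd and luna carry copies of the same element, 297, in opposite orientations relative to the gene. udd encodes a factor needed for RNA polymerase I transcription in the female germline, and luna a Krüppel-like zinc finger protein. The udd 3′ UTR (2R, start 3994441, plus strand) held antisense values of 40.8, 41.5 and 42.79 in enok1, 41.43, 38.35 and 40.77 in enok2 and 70.02, 77.2 and 66.37 in WT. The luna 3′ UTR (2R, start 6865461, minus strand) held 9.57, 13.83 and 15.87 in enok1, 11.44, 9.78 and 11.3 in enok2 and 27.68, 40.98 and 31.76 in WT. In both, every mutant library was below every WT library.

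The same values came back on the opposite strands. udd sense values were 9.66, 14.01 and 16.0 in enok1, 11.48, 9.8 and 11.38 in enok2 and 27.52, 40.97 and 31.19 in WT, and so lay within 0.57 of luna antisense in each of the 9 libraries, at a ratio between 0.98 and 1.01. luna sense values were 48.59, 52.74 and 53.97 in enok1, 56.09, 49.91 and 52.9 in enok2 and 91.58, 97.0 and 86.18 in WT. The ratio of udd antisense to luna sense was between 0.74 and 0.84. These features are thus not independent measurements. By the annotated orientations, small RNAs antisense to 297 would be counted as antisense for udd and as sense for luna.

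On the sense strand udd and luna were the only ones of the 43 called in the same direction in both mutants. Of all 3′ UTRs tested on that strand, 0.506% were called lower in both and 1.34% higher in both. Of the 43, 22 reached a mean of 1 over the 9 libraries and were tested for sense small RNAs, among 2769 3′ UTRs. Calls in enok1 were 2 lower (udd and luna) and 2 higher (msl-2 and ATPCL), where 1.77% of the 2769 were called lower and 7.01% higher. In enok2 the calls were udd and luna, both lower, and 0 were higher (limma), against 0.686% and 1.66%. There, 6 of the 22 had an unadjusted p under 0.05, as had 17.7% of the 2769. udd sense differed by -1.27 in enok1 (SE 0.23) and by -1.51 in enok2 (SE 0.19), and luna sense by -0.81 (SE 0.18) and -0.78 (SE 0.14). The luna call was lost in enok1 without WT library 1 or 2 or enok1 library 2, and in enok2 without WT library 2 or enok2 library 2 or 3 (limma adjusted p between 0.0524 and 0.062). With such libraries left out the number called in enok1 ranged between 1 and 4 of the 22. Since udd sense repeats luna antisense and luna sense follows udd antisense, these sense differences repeat the antisense ones by which both were chosen and are a description. Both genes also lie on the arm made homozygous. Scaled by piRNA clusters 1 of the 22 was called below WT and 4 above it in enok1, with 2 below and 3 above in enok2. Scaled by sense 3′ UTRs, 3 were below and 0 above in enok1 (limma, with 9 at an unadjusted p under 0.05).

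ATPCL, the gene of ATP citrate lyase (2R, start 11879931, minus strand), was the other one called higher on the sense strand in enok1. Its sense values were 2.89, 3.54 and 3.37 in enok1, 3.63, 2.27 and 3.14 in enok2 and 0.8, 0.27 and 1.67 in WT. Both mutant groups lay above WT, by 1.22 in enok1 (SE 0.28, limma adjusted p = 0.0203) and 1.12 in enok2 (SE 0.30, limma adjusted p = 0.0798). Without WT library 1 or 2 or enok1 library 2 or 3 the enok1 call was lost (limma adjusted p between 0.0555 and 0.0711). ATPCL antisense overlapped between the groups, at 4.07 ± 1.0 in enok1, 5.14 ± 1.7 in enok2 and 4.39 ± 1.6 in WT (SD, n = 3 each). The median sense difference of the 22 was -0.08 in enok1 and -0.18 in enok2, beside 0.20 and 0.12 over the 2769.

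**Figure D3:**
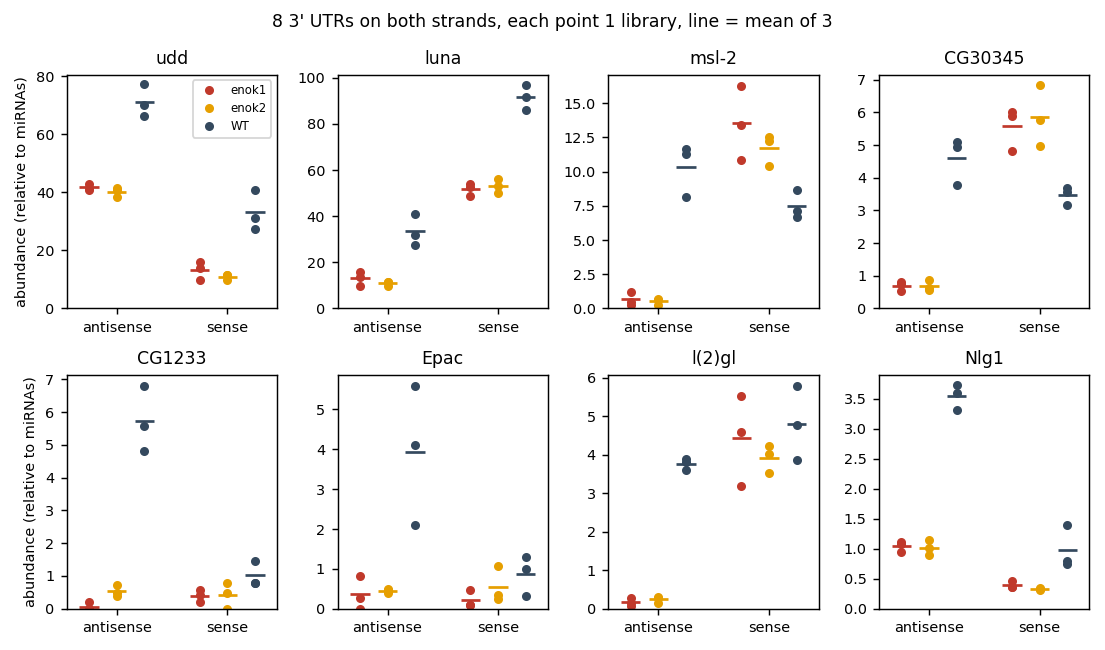
Abundance relative to miRNAs on the antisense and sense strand of 8 3′ UTRs whose antisense signal was called lower in both mutants (points are single libraries, lines the means of 3; red enok1, orange enok2, dark blue WT; each panel has its own linear axis from 0). udd and luna are lower in the mutants on both strands, whereas the sense strand of msl-2 and CG30345 lies higher in the mutants than in WT and that of l(2)gl overlaps.

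Of the 7 transposon-bearing 3′ UTRs not called, some overlapped WT and others lay below it without passing the test. Scgdelta, which encodes a sarcoglycan of the dystrophin complex (X, starts 1639911 and 1639909, minus strand, roo), held 8.89, 11.05 and 10.69 in enok1, 9.86, 8.14 and 9.28 in enok2 and 8.4, 9.87 and 9.5 in WT at the first start. The groups overlapped, with log2 differences of 0.13 (SE 0.16) and -0.02 (SE 0.15). The second Scgdelta feature starts 2 bases away and differed from the first by at most 0.01, so both are 1 measurement. alpha-Man-Ia, a mannosidase gene (X, start 10170088, minus strand, roo), averaged 5.87 ± 0.49 in enok1, 5.52 ± 0.64 in enok2 and 5.95 ± 0.62 in WT. Sec20, a SNARE gene (3R, start 1647748, minus strand, 1360), averaged 9.56 ± 0.39 in enok1, 8.58 ± 0.65 in enok2 and 8.73 ± 0.59 in WT. Its sense signal was the larger one, at 12.78, 19.69 and 19.16 in enok1, 21.07, 19.21 and 19.31 in enok2 and 22.4, 22.76 and 26.59 in WT. All mutant libraries of Sec20 sense were below WT, but neither difference passed the test (-0.47, SE 0.21, limma adjusted p = 0.198 in enok1, and -0.25, SE 0.16, limma adjusted p = 0.456 in enok2).

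The 412-bearing teq (a serine protease gene, 3L, start 9070122, plus strand) averaged 14.2 ± 1.2 in enok1, 13.9 ± 0.79 in enok2 and 16.8 ± 1.4 in WT on the antisense strand. All enok2 libraries of teq were below WT, at 82.8% of its mean, whereas enok1 overlapped WT. The opus-bearing CG3857 (X, start 1831733, minus strand) held 14.95, 12.49 and 12.29 in enok1, 15.44, 12.43 and 14.04 in enok2 and 15.59, 19.09 and 18.46 in WT. All 6 mutant libraries of CG3857 were below WT, by -0.39 (SE 0.16) in enok1 and -0.32 (SE 0.14) in enok2, and it was not called in either.

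The 25 3′ UTRs with an exon or a nearby 3′ UTR start on the opposite strand differed less. For CG1463 and CG31211 no overlapping exon was annotated on the opposite strand. They were placed here by a 3′ UTR starting within 2000 bases, and had the highest WT antisense means of the 25, at 106.0 and 32.4. Their summed antisense abundance was 266.0 ± 55.0 in enok1, 268.0 ± 7.7 in enok2 and 289.0 ± 13.0 in WT (SD, n = 3 each), with a median log2 difference of -0.07 in enok1 and -0.13 in enok2. Of the 25, the enok1 calls were 2 lower and 2 higher, and those in enok2 were 2 lower and 1 higher. Over the 216 tested, 15.7% were called lower and 8.8% higher in enok1, and 16.2% and 11.6% in enok2. Nothing is read from these counts, as the 3′ UTRs were chosen for high WT values. Their antisense share was high, with a median of 93.8% in WT against 69.1% for the transposon-bearing ones.

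CG1463 (X, start 12504010, minus strand) held antisense signal with almost no sense signal. Its antisense abundance was 56.96, 71.97 and 99.48 in enok1, 78.73, 79.63 and 92.6 in enok2 and 99.65, 103.93 and 113.83 in WT. The mutant libraries were all below WT, although enok1 library 3 came close to the lowest WT library. The log2 differences were -0.50 (SE 0.20) and -0.34 (SE 0.08), of which only that in enok2 was called, and not without enok2 library 1 or 2, where it was -0.30. Its sense strand was at 0 in all WT libraries. The 3′ UTR of Sec16, an organiser of endoplasmic reticulum exit sites, starts 1036 bases away on the plus strand and held sense abundances of 20.4 in enok1, 20.2 in enok2 and 24.8 in WT.

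CG31211 (3R, start 7778549, plus strand) was the only one called higher on the antisense strand in both mutants. Its antisense values were 43.31, 43.56 and 55.8 in enok1, 40.98, 44.02 and 47.35 in enok2 and 34.28, 32.98 and 29.8 in WT. Every mutant library was above WT, by 0.53 (SE 0.16) and 0.44 (SE 0.10). In enok1 the call did not hold without any of the WT libraries or enok1 library 2 or 3, with log2 differences between 0.42 and 0.59. The neighbouring 3′ UTR on the opposite strand is that of the heat shock gene Hsp70Aa, which has near-identical copies in the genome, so its own sense value (5.34 in enok1, 4.22 in enok2 and 3.93 in WT) is uncertain. CG31211 sense small RNAs were few, at 4.34, 1.14 and 3.64 in enok1, 1.89, 3.4 and 1.96 in enok2 and 5.2, 2.53 and 2.92 in WT.

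CG11768 (3R, start 4576502, minus strand) had no sense small RNA in any of the 9 libraries. Its antisense values were 12.34, 9.66 and 11.12 in enok1, 8.75, 12.14 and 7.65 in enok2 and 5.0, 8.58 and 3.34 in WT. enok1 lay above WT throughout, by 0.93 (SE 0.27), whereas enok2 overlapped WT, with 0.72 (SE 0.29). The enok1 call was lost without WT library 1 or 3 or any enok1 library, where the log2 difference was between 0.66 and 1.01. In Release 6 its 3′ UTR overlaps exons of Nasp, a histone chaperone gene, and of an antisense RNA gene. The next largest differences above WT were those of CG32576 (0.41 in enok1 and 0.47 in enok2, SE 0.35 and 0.38), the diuretic hormone receptor gene Dh44-R2 (0.53 and 0.29, SE 0.21 and 0.26) and Psf3, a GINS subunit gene (0.22 and 0.01, SE 0.37 and 0.20). For none of these 3 was a difference called, and Psf3 in enok1 rested on library 3, at 8.49 beside 2.44 and 2.46.

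CG1233 (3L, start 365247, plus strand) stood apart within this set. It held 0, 0 and 0.2 in enok1, 0.71, 0.49 and 0.39 in enok2 and 6.8, 5.59 and 4.8 in WT. Antisense signal was thus at or near 0 in the mutants, with log2 differences of -2.65 (SE 0.23) and -2.13 (SE 0.21). Its sense values were low in all groups (0.41, 0.57 and 0.2 in enok1, 0.47, 0 and 0.78 in enok2 and 0.8, 0.8 and 1.46 in WT). CG6511 (3L, start 8718612, plus strand) was called lower in enok1 only, with 2.4, 1.7 and 1.75 in enok1, 3.23, 2.43 and 1.37 in enok2 and 6.0, 2.99 and 4.39 in WT. That call did not hold without WT library 1 or 3 or enok1 library 2 or 3, where the difference was between -0.85 and -0.66, and a difference between the alleles was not called.

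Where a neighbouring 3′ UTR on the opposite strand was known from the identifiers, 18 of the 20 pairs were arranged tail to tail by their starts. For Cog2 with Hibch and ATPCL with CG8320 the starts alone do not give the arrangement. In Release 6 exons of Hibch and CG8320 overlap those 3′ UTRs. The antisense abundance of a 3′ UTR was within a factor of 2 (a ratio between 0.5 and 2) of the sense abundance of its neighbour in WT for 7 of the 20, above it for 11 and below it for 2. Antisense small RNAs of a 3′ UTR and sense small RNAs of such a neighbour lie on the same genomic strand. Where the features overlap, the same reads may be counted under both names, so such pairs need not be independent measurements. Some pairs held similar values for the 2 genes in all groups, and those named next were picked for it. CG10654 antisense was 19.6, 15.7 and 16.8 in enok1, enok2 and WT, and the sense abundance of vih, an E2 ubiquitin-conjugating enzyme gene starting 225 bases away, was 20.9, 16.4 and 17.6. For the exoribonuclease gene PNPase the antisense means were 1.99 in enok1, 3.51 in enok2 and 3.11 in WT, beside sense means of 2.20 in enok1, 3.77 in enok2 and 3.25 in WT for the eIF2α kinase gene Gcn2, 182 bases away. In both pairs the group means stood in the same order for the 2 genes. In Release 6 an exon of vih overlaps the CG10654 3′ UTR, and an exon of Gcn2 that of PNPase. Cog2, a subunit of the Golgi COG complex, had antisense means of 7.14 in enok1, 7.91 in enok2 and 7.49 in WT, beside 6.74, 6.98 and 6.81 for Hibch. Both features of CG32544 (3.10 in enok2 and 3.72 in WT) lay opposite CG7326 (2.57 and 2.97).

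Other pairs did not match, also at short distance. NM_169831 held antisense means of 5.06 in enok1, 4.13 in enok2 and 4.46 in WT, beside sense means of 0.503, 0.52 and 0.947 for CG7702, 242 bases away. NM_001169948 and the BLOC-1 subunit gene Pldn start at the same base of 3L (11682731, minus strand) and both lie opposite Sugb. They held antisense means of 13.3 and 5.36 in enok1, 13.9 and 4.97 in enok2 and 15.1 and 6.08 in WT, beside 33.0, 34.9 and 39.0 for Sugb sense. For CG11158, antisense means of 14.6 in enok1, 15.2 in enok2 and 17.9 in WT stood beside 8.63, 8.91 and 7.60 for Nadsyn, an NAD synthetase gene. Among the 20, antisense calls against WT were 1 lower and 1 higher for enok1, and for enok2 they were 2 lower and 1 higher. Over all 216 tested, 15.7% were called lower and 8.8% higher in enok1, and 16.2% and 11.6% in enok2. The one of the 20 called lower in both was l(2)gl, which also carries transposons.

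**Figure D4:**
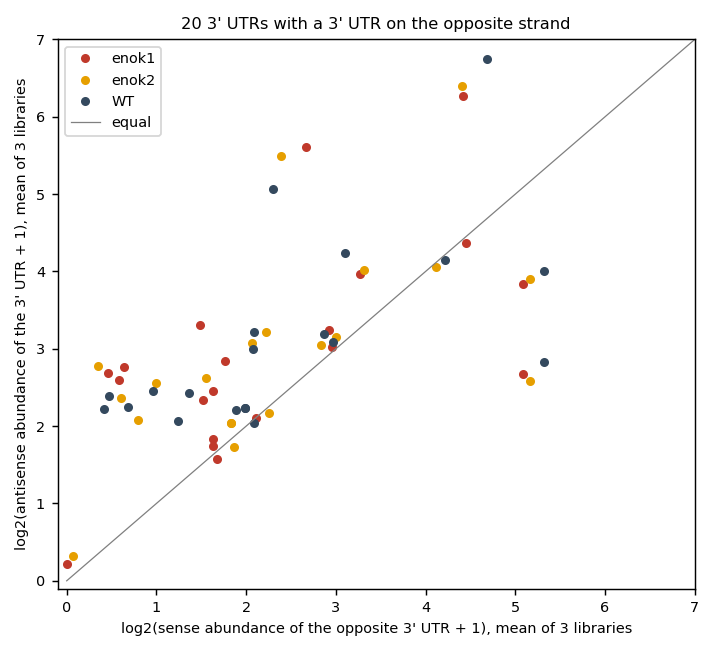
Mean antisense abundance of the 20 3′ UTRs that have a 3′ UTR on the opposite strand within 2000 bases, against the mean sense abundance of that neighbour, both as log2(abundance + 1), with 1 point per pair and group (red enok1, orange enok2, dark blue WT) and a grey line at equality. Pairs such as CG10654 and vih lie on the line, CG1463 and CG31211 lie far above it, and the pairs with Sugb lie below it.

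The 3 3′ UTRs with neither annotation were those of Epac, Cdep and Rab8. Epac, a cAMP-activated exchange factor for Rap GTPases (2R, start 2647220, minus strand), held antisense values of 0.27, 0 and 0.81 in enok1, 0.47, 0.49 and 0.39 in enok2 and 4.1, 5.59 and 2.09 in WT. All mutant libraries were below WT although WT varied, and the log2 differences were -1.83 (SE 0.34) and -1.70 (SE 0.29). Cdep, a FERM domain protein gene (3R, start 770776, plus strand), held 0.41, 0.76 and 0.81 in enok1, 1.18, 1.21 and 1.57 in enok2 and 3.4, 3.19 and 4.6 in WT. NM_001103456, which was not looked up (X, start 9315780, minus strand) held 1.98, 1.92 and 1.42 in enok1, 1.37, 1.86 and 1.13 in enok2 and 5.25, 5.4 and 4.52 in WT. Neither overlapped WT, with differences of -1.51 (SE 0.23) and -1.02 (SE 0.21) for Cdep and -1.13 and -1.31 (SE 0.20 each) for NM_001103456. Rab8, a small GTPase gene, overlapped WT in both mutants, at 2.82 ± 1.0 in enok1, 2.32 ± 1.2 in enok2 and 3.85 ± 0.36 in WT, and was not called.

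Summed over the 43, antisense abundance was 344.77, 387.39 and 465.12 in enok1, 391.67, 392.48 and 394.63 in enok2 and 482.13, 526.29 and 516.82 in WT. The mutant libraries were all below WT, at 78.5% of the WT mean in enok1 and 77.3% in enok2, which is a description because WT chose the 3′ UTRs. The sense sum was 170.2 ± 9.46 in enok1, 161.2 ± 8.3 in enok2 and 225.8 ± 13.3 in WT (SD, n = 3 each). It is a description as well, because sense values of udd and luna repeat the antisense values by which the 3′ UTRs were chosen. Once udd and luna were left out, the enok1 sense sum was at 104.0% of WT (exact permutation p = 0.4) and that of enok2 at 96.4% (exact permutation p = 0.5), where 0.1 is the smallest p that 3 libraries against 3 allow. Once the 9 3′ UTRs on 2R were left out, these were 100% and 90.6%. Both ways of leaving 3′ UTRs out were chosen after seeing the data.

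By chromosome arm, 5 of the 9 on 2R were called lower in each mutant, and both on 2L (msl-2 and l(2)gl) were. Off 2R, 7 of 34 were called lower in enok1 and 7 of 34 in enok2. Over the 216 tested, 15.7% were called lower in enok1 and 16.2% in enok2, and shares of all tested 3′ UTRs by arm were not taken. The 5 on 2R include udd and luna, which are not independent measurements. As above, nothing is read from these counts, since the 43 were chosen for high WT values.

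The alleles were also compared directly, a contrast that played no part in choosing the 3′ UTRs. None of the 43 was called on the antisense strand between enok2 and enok1, where 0.0% of the 216 were called (limma, Benjamini-Hochberg). At an unadjusted p under 0.05 there were 2 of the 43, CG1233 and PNPase, and 11 of the 216 (5.09%). All 43 lay within a log2 difference of 1, between -0.39 (S6kII) and 0.62 (PNPase), with standard errors between 0.13 and 0.36. A missed threshold does not show that the alleles acted alike. On the sense strand limma called 0 of 22 (0.0361% of the 2769), with 3 at an unadjusted p under 0.05 (CG2006, NM_169831 and Rab8), as for 6.83% of the 2769. The farthest apart was NM_169831, with sense values of 0.47, 1.21 and 2.55 in enok2 and 4.75, 3.98 and 2.83 in enok1 (log2 -1.08). Summed antisense abundance was 392.9 ± 1.53 in enok2 and 399.1 ± 61.0 in enok1 (exact permutation p = 1.0).

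Genes that make small RNAs were themselves not among the 43. Of 32 piRNA pathway genes and 10 siRNA pathway genes listed, 9 and 5 had a 3′ UTR in the tables, and 0 reached the level needed for an antisense test. On the sense strand nxf2, an adaptor for Piwi-guided silencing, was the 1 of 9 piRNA pathway 3′ UTRs called in enok1 (log2 1.38, limma adjusted p = 0.00725). The siRNA pathway list also holds miRNA factors, among them AGO1, the Argonaute that carries most miRNAs in flies. Of its 5 tested 3′ UTRs, 3 were called higher in enok1, where 7.01% of the 2769 were, and these were both of AGO1 and that of r2d2, a Dicer-2 partner (log2 between 0.72 and 1.26, limma adjusted p between 0.0204 and 0.0491). In enok2, 0 of either list was called. Sense small RNAs of a 3′ UTR are not a measure of the mRNA. No feature of enok was among the tables' identifiers.

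Sense small RNAs of marker genes for the tissues of the ovary differed between groups for some lists and overlapped for others. Sense small RNAs of the eggshell genes, made by follicle cells late in oogenesis, summed to 1601 to 3325 in enok1, 3291 to 6183 in enok2 and 3802 to 6815 in WT, so that enok1 lay below WT and enok2 overlapped it. Of the follicle cell list, 7 of 8 genes were present and 1 of 9 3′ UTRs tested, that of the yolk protein gene Yp3, was called lower in enok1 (log2 -1.06, limma adjusted p = 0.0447). Their summed sense abundance ranged between 123.0 and 207.0 in enok1, between 148.0 and 166.0 in enok2 and between 136.0 and 241.0 in WT, and overlapped. For the germline list, 2 of 9 genes were present, at 16.2 to 21.7 in enok1, 13.9 to 18.9 in enok2 and 6.4 to 11.2 in WT, and that of osk was called higher in enok1. Over the 2769 tested on the sense strand, 1.77% were called lower and 7.01% higher in enok1. Of the muscle list, 1 of 4 genes was present, at 0.26 to 0.47 in enok1, 0.1 to 0.36 in enok2 and 0.41 to 0.66 in WT. Sums of the germline list, which rest on 2 genes, were thus higher in both mutants without overlap. The piRNA pathway list was also higher in both without overlap. Its sense sums were 38.3 to 62.2 in enok1, 41.6 to 45.6 in enok2 and 25.2 to 36.1 in WT. Those of the siRNA pathway list were 41.0 to 53.1 in enok1, 34.5 to 42.5 in enok2 and 25.9 to 34.6 in WT. There, only enok2 narrowly overlapped WT. Higher sense sums were therefore not particular to the germline list. The part of tissue composition in the antisense differences was not tested.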

How the data were processed

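Small RNAs of 18 to 30 nt from total RNA of ovarian egg chambers were sequenced in directional libraries. The deposited tables hold a signal made by the authors, called abundance here, on a linear scale. According to the study's methods, reads were mapped to dm3 without mismatch with piPipes, taking unique mappers, and normalized to the miRNAs of the library; Trimmomatic is named in the processing notes. Values are fractional, and udd and luna share theirs, so repeated sequence may have been shared out between positions. A change in miRNA level would move all features of a library alike.

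Features with the same position, strand and values were counted once. limma 3.58.1 (R 4.3.3, eBayes with trend) was run on log2(abundance + 1), which understates changes of low features, with the 2 groups compared in each fit. Features needed a mean of 1 over the 9 libraries (216 antisense, 2769 sense), and a call an adjusted p under 0.05 (Benjamini-Hochberg). Sums were compared by exact permutation tests, 2-sided. The limma fit was checked on simulated data with known changes. Alternatives were other pseudocounts, filters, scalings, variance models, a replicate block and leaving out each library.

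Symbols came from RefSeq Release 6 (8346 of 8510 features matched, 98.1%), and overlaps with exons and transposons from the Ensembl annotation of Release 6, by symbol. Positions are starts from the dm3 identifiers, which give no end. No sequence was read.

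The genes named are the 12 highest in WT antisense, the 5 largest differences each way, the 5 highest antisense shares, those called on the sense strand in both mutants or between the alleles, 3 either side of the threshold and the lists (piRNA and siRNA pathways, germline, follicle cells, muscle). Others were named after their values were seen. The 43 and the lists were chosen with earlier results of these data known.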

Additional observations from a re-analysis of the deposited data

How the results depend on the processing

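No value changed sign among the single 3′ UTRs followed through the alternatives. Over 33 calls there were 522 such values, of which 447 kept the call and 75 lost it. The antisense calls of msl-2, CG1233, NM_001103456, CG30345, l(2)gl, Cdep and Nlg1 held in both mutants under every alternative run for them. Every alternative kept the 3′ UTRs chosen for high values in the same WT libraries. Holding a call therefore describes its dependence on processing and does not remove the effect of that choice. Groups of 3 libraries limit all of this, and low 3′ UTRs rest on a few reads. The cause of the changes below was not tested, except that stricter filters test fewer features.

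Of the 43, 14 were called on the antisense strand in enok1 and 13 in enok2. With no filter on low values enok1 had 8, with a filter of 3 it had 5, with a filter of 10 it had 4 and with each feature's own variance 9. For enok2 a filter of 3 gave 5 and a filter of 10 gave 4. Over all 3′ UTRs, 53 antisense calls in enok1 became 34, 26, 12 and 30 under the same settings, and 60 in enok2 became 38, 29 and 12 with no filter, a filter of 3 and a filter of 10. Between the alleles 0 antisense calls became 2 with no filter, and ranged between 0 and 5 when single libraries were left out, 5 being without enok1 library 3.

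Sense calls moved more. Of the 22 tested, 4 in enok1 became 1 with own variances and ranged between 1 and 4 with single libraries left out. The 2 in enok2 became 1 with no intensity trend, 0 with own variances and 5 scaled by piRNA clusters, and ranged between 1 and 2 with single libraries left out. Over all 3′ UTRs, 243 in enok1 became 117 with no filter, 76 with a filter of 10, 25 with own variances, 125 scaled by sense 3′ UTRs and 618 scaled by piRNA clusters, and ranged between 70 and 186 with single libraries left out. The 65 in enok2 became 43 with no filter, 106 with a filter of 3, 2 with own variances, 186 scaled by piRNA clusters and 100 with all 9 libraries in 1 fit, and ranged between 40 and 56. Between the alleles 1 call became 0 with a pseudocount of 0.5, no filter, a filter of 10, no intensity trend, own variances, scaling by piRNA clusters and all libraries in 1 fit, and ranged between 0 and 3.

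Scaling by sense 3′ UTRs shifted enok1 by -0.29 and enok2 by -0.18 on the log2 scale against WT, and scaling by piRNA clusters by 0.34 and 0.22. Scaled by sense 3′ UTRs, the antisense sums of enok1 and enok2 were at 64.2% and 68.2% of WT, the sense sums at 61.9% and 62.9%, and sense in enok2 at 102.0% of enok1. CG31211 lost its antisense call in both mutants under that scaling. Without the 3′ UTRs on 2R the antisense sum of enok2 was at 86.0% and the sense sums at 100% and 90.6%. Without udd and luna these were 84.7%, 104.0% and 96.4%. The antisense share differed from WT by -2.51 percentage points in enok1 and -0.80 in enok2 without 2R, and by -3.65 and -2.16 without udd and luna. A WT mean of at least 2 or 5 would have given 67 or 24 3′ UTRs. By the mean of all 9 libraries there were 36, of which 32 were shared with the 43.

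Deviations of same-numbered libraries correlated between -0.118 and 0.136, so no pairing by replicate number was seen in these values. With 3 libraries a group and many low features this check is weak, and whether same-numbered libraries were prepared together is not known. With the replicate number as a block there were 48 antisense calls in enok1 and 58 in enok2, and 216 and 72 sense calls. Of the 43, the block gave 13 antisense calls in enok1, without CG31211 and CG11768, and 14 in enok2.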

Other observations

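The antisense signal of Scgdelta over that of alpha-Man-Ia, both of which carry roo, had a ratio between 1.49 and 1.77 (median 1.63) in all 9 libraries. As a reference for the transposon-bearing 3′ UTRs, the piRNA cluster 42AB stood at 16.1% of WT in enok1 and 18.8% in enok2 on its antisense strand. The cluster flam, active in follicle cells, stood at 101.0% in each on that strand. On the sense strand, which holds most of the flam signal, flam stood at 95.8% in enok1 and 94.8% in enok2. For 42AB these were 16.5% and 19.5%. No relation of single 3′ UTRs to either cluster was tested.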
